A study of Mus musculus with 205 samples.

Results

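Atp8 is the smallest protein-coding gene of mouse mtDNA, and 7 of the 205 samples of the series carry DNA edited at it. They were chosen by the target gene given in the sample labels: 4 DdCBE pairs (51, 52, 77 and 78) of the 52 pairs of a screen, with 1 sample each, and 3 further samples of pair 51, the pair taken forward for Atp8. All were NIH/3T3 cells, an established line of mouse embryonic fibroblasts, grown in glucose medium with uridine and transfected with 3200 ng of each of 2 plasmids, one for each side of the editor. Cells positive for both GFP and mCherry were sorted at 24 h, and mtDNA was sequenced at 7 d in the screen and at 14 d for the lead pair. Controls, 2 samples in the screen and 3 at 14 d, are labelled both WT and empty, and the deposited tables call them WT. The study's text describes the 14 d controls as wild-type cells. All are called empty vectors here, after the labels, and whether they were transfected or sorted is not given. The expression was transient and the cells were pools of sorted transfectants, not clones.

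A DdCBE is a cytosine base editor for mtDNA, in which 2 TALE proteins bind either side of a target and each brings one part of the split deaminase DddAtox. The rejoined enzyme turns C into U on double-stranded DNA, mostly after a T, and replication then fixes a C:G-to-T:A change. In mitochondria TGA is read as tryptophan, so that deaminating the C opposite its middle base leaves the stop codon TAA. Atp8 encodes a short membrane subunit of complex V, the ATP synthase, which makes ATP from the proton gradient that complexes I, III and IV build. Atp6, the other complex V subunit encoded in mtDNA, lies in the proton channel and is translated from the same transcript, in which the end of the Atp8 reading frame overlaps the start of Atp6.

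Atp8 lies on chromosome M of GRCm38 from 7766 to 7969 on the forward strand, a single exon of 204 bp. It has 3 in-frame TGA codons, at codons 9, 51 and 55 of the 67 that precede its natural stop. The pairs aimed at the first, where G7791A (positions counted from the first base of the mtDNA, reference base first) turns TGA into TAA 25 bp after the first base of the gene. The first 19 codons are shown before and after the edit because they hold the whole stretch that would still be translated, with the target codon in capitals (chrM:7766-7822, forward strand, RefSeq GRCm38).
Atp8 reference: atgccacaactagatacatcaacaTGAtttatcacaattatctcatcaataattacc
Atp8 edited: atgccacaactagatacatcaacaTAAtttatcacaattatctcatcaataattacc
The edited frame ends after 8 codons, which is 11.9% of the protein. Among the 13 genes only the target of CoI, a core subunit of complex IV, left fewer codons (5), and the number reached 145 in CoIII. As a share of the protein, Atp8 was the fifth lowest, between Nd5 and Nd3 (19.1%), in a range from 0.973% in CoI to 91.8% in Nd4l. The difference between the count and the share comes from the length of the gene, since 204 bp was the shortest frame of the 13 and 1824 bp, in Nd5, the longest.

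The overlap of the Atp8 and Atp6 frames is printed because it is the part of Atp8 where an edit would also fall in Atp6, with the start codon of Atp6 in capitals (chrM:7927-7969, 43 bp, forward strand).
Overlap: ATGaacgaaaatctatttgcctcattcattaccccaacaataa
The edited base lies 136 bp upstream of this start codon and 278 bp upstream of the base edited by the Atp6 pairs, so the Atp8 edit lay outside the Atp6 frame. The second TGA codon of Atp8 (G7917A if edited) lies 10 bp before the start of Atp6. The third (G7929A) overlaps the Atp6 start codon, and its editing would turn the Atp6 start ATG into ATA, which also reads as methionine in mitochondria. No sample was aimed at these 2 codons.

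DdCBEs can also edit other cytosines that follow a T within reach. The 57 bp shown hold 7 TC:GA sites. In 2 of them (the target among these) the C is on the complementary strand, and in 5 on the strand printed. The stretch between the TALEs of a pair is shorter than these 57 bp, so not all 7 lie within reach. Which of them do was not worked out here. Of the 6 other than the target, C-to-T changes at C7798T and C7807T would keep isoleucine. G7778A would turn Asp into Asn, and C7785T, C7809T and C7812T would turn Ser into Leu. C7798T, C7807T, C7809T and C7812T lie in codons 11 to 16, after the new stop. On a copy that also carries that stop they would not be translated. None of the 6 would make a stop codon. For each Atp8 sample the deposited tables hold 1 on-target value, and the column for a second target base is empty (0 of 7 samples). These neighbours were not analysed here.

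The bases around the target are compared with those of 4 other genes that the results place beside Atp8, in windows of 21 bp centred on the edited base, as the coding strand reads, with the target codon in capitals (RefSeq GRCm38, forward strand).
Atp8 (chrM:7781-7801): acatcaacaTGAtttatcaca
CoII (chrM:7313-7333): gggcaccaaTGAtactgaagc
Cytb (chrM:14364-14384): aattacgggTGActaatccga
Atp6 (chrM:8059-8079): ttccaacacTGActagttaaa
CoI (chrM:5334-5354): attaatcgtTGAttattctca
The 5 bases ATGAT, read on the coding strand with the edited base in the middle, occurred at 2 of the 13 targets, those of Atp8 and CoII. Over 41 bp centred on the target, Atp8 had the lowest GC content of the 13 (26.8%). Atp6 and CoI followed with 31.7% each, and the highest was 43.9%, in Nd1 and Nd2.

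In the screen, on-target editing (how often, in percent, the target base was read as edited) was high for every Atp8 pair. Pair 51 reached 83.2%, pair 78 reached 80.2%, pair 52 reached 78.9% and pair 77 reached 74.5%. The 4 pairs averaged 79.2%, the third highest mean of 13 genes, and lay within 8.66 percentage points of each other. Between 16.8% and 25.5% of the mtDNA kept the reference base.

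Across the 13 genes the means ran from 44.0% in Nd4, a complex I subunit, to 87.7% in CoI. Atp6 (87.6%) stood directly above Atp8 and Cytb (78.2%), the complex III subunit, directly below. The lowest Atp6 pair (84.1%) exceeded the highest Atp8 pair, whereas the 4 Cytb pairs (74.5% to 84.4%) spanned nearly the same range as the Atp8 pairs. The best pair of 3 genes (CoII, Nd4 and Nd6) lay below the weakest Atp8 pair. Of the 48 pairs of the other genes, 22 matched or exceeded the weakest Atp8 pair and 10 exceeded the strongest.

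The choice of pair changed on-target editing less for Atp8 than for most genes. The range over 4 pairs was 8.66 points for Atp8, the second smallest of 13 after Atp6 (8.41 points), with Cytb next (9.90 points). It was largest for CoIII, a further complex IV subunit, at 65.1 points, where pairs ran from 17.6% to 82.8%. The off-target average of the Atp8 pairs also varied little, with the highest 1.38 times the lowest, second after Cytb (1.34 times), while Nd5 reached 4.02 times. Pairs to one site are not replicates, so these ranges are descriptions.

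**Figure D1:**
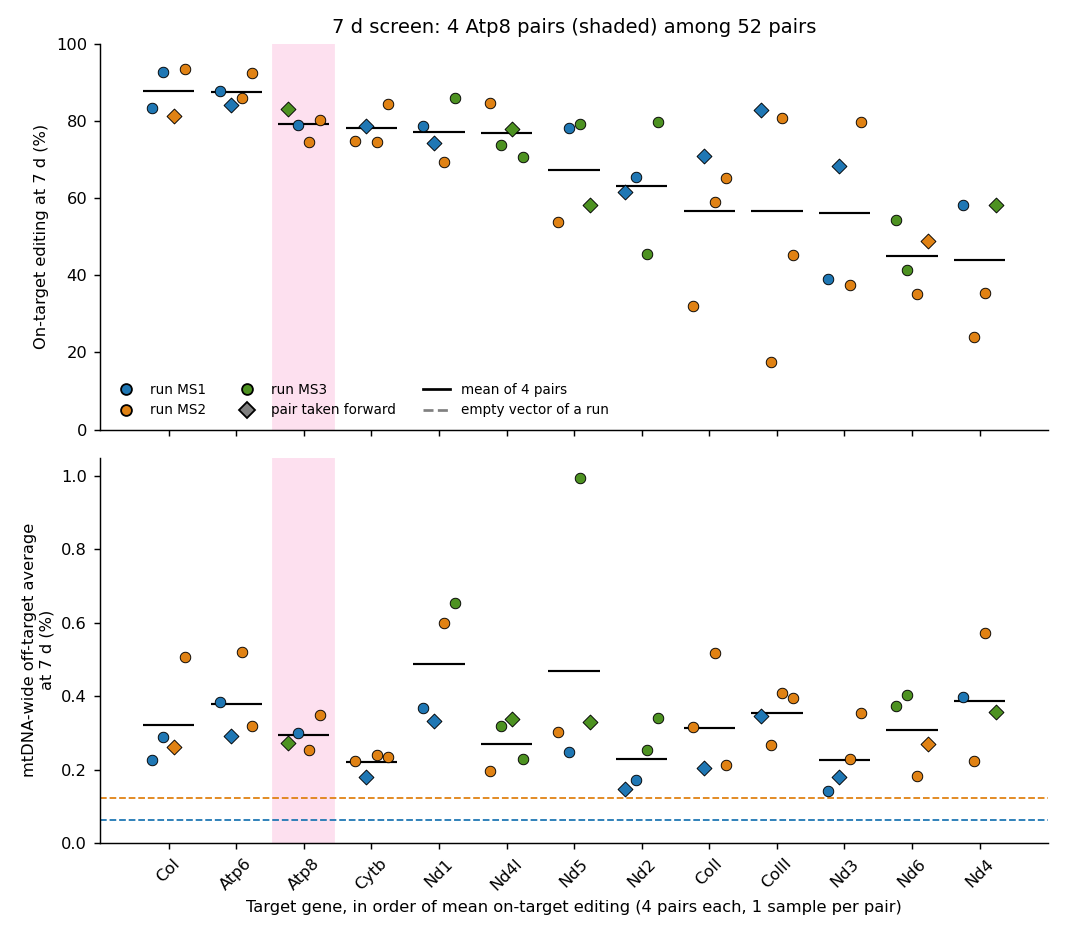
On-target editing (upper panel, %) and mtDNA-wide off-target average (lower panel, %) of the 52 pairs of the 7 d screen, 1 point per pair, by target gene in the order of the mean on-target value (black bars), coloured by sequencing run, with diamonds for pairs taken forward and dashed lines for the empty vectors of runs MS1 and MS2. The 4 Atp8 points (shaded) sit between 74.5% and 83.2% on target and between 0.254% and 0.349% off target, closer together than those of most genes.

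The off-target average is the mean C:G-to-T:A frequency across the mtDNA. The set of positions behind it, and whether it holds the target, is not given in the sources used here. It was 0.254% in pair 77, 0.271% in pair 51, 0.299% in pair 52 and 0.349% in pair 78. The Atp8 mean of 0.293% was the ninth highest of 13, below the third place that Atp8 held on target. This order compares pairs across sequencing runs whose empty vectors differed, as given below. Among the 22 other pairs that matched the weakest Atp8 pair on target, 8 had a higher off-target average than every Atp8 pair and 7 a lower one than every Atp8 pair, so that Atp8 lay in the middle of the well-editing pairs.

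The screen was sequenced in 3 runs with different depth, and the Atp8 pairs were spread over all of them. Run MS1 held pair 52 (mean coverage 975), MS2 held pairs 77 (1255) and 78 (309), and MS3 held pair 51 (13005). Within its own run pair 51 was second of 12 on target and number 10 of 12 off target, pair 52 was sixth of 16 on both, pair 78 was eighth and ninth of 24, and pair 77 was twelfth and sixteenth of 24. Pair and run therefore cannot be told apart except for 77 and 78. The empty vectors of the screen read 0.0616% in MS1 and 0.121% in MS2, and MS3 held none. Against the empty vector of its own run the off-target average was 4.86-fold higher for pair 52, 2.87-fold for pair 78 and 2.09-fold for pair 77 (median 2.87).

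The 4 pairs combine 2 light-strand TALEs (L1 and L2) with 2 heavy-strand TALEs (H1 and H2), all with the C-terminal part of DddAtox on L and the N-terminal part on H. Pair 51 is L1 with H1, 52 is L2 with H2, 77 is L2 with H1 and 78 is L1 with H2. The L2 and H1 sites lie nearer to the target, so that pair 77 has the shortest spacing and pair 78 the longest. In the one comparison within a run, pair 78 exceeded pair 77 by 5.63 points on target and by 0.0952 points off target (1.38 times), with 1 sample each and no test. Over the square of 4 pairs, both L1 pairs (mean 81.7%) lay above both L2 pairs (76.7%) on target, and both H2 pairs (0.324%) lay above both H1 pairs (0.262%) off target. On target the means were 78.9% with H1 and 79.6% with H2. There H2 was 3.03 points below H1 with L1 and 4.42 points above it with L2. Each of these L and H means joins pairs from different sequencing runs, with 1 sample per pair. TALE and run therefore cannot be told apart in them, and a part of either TALE side was not tested.

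Pair 51 was selected by the study on these same screen samples, for high on-target and low off-target editing. Its first place on target and second-lowest off-target average among the 4 Atp8 pairs are therefore given as a description only. The 14 d samples are further samples of that pair, which the selection did not use.

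At 14 d, on-target editing by pair 51 was 65.7%, 65.1% and 65.1% in the 3 samples, a mean of 65.3% ± 0.33 (SD, n = 3). The study's legends call the 14 d samples technical replicates, so SDs, separations and p-values at 14 d measure only that spread. The tryptophan codon of Atp8 was thus kept in 34.7% of the mtDNA on average. Atp8 was the fifth of the 13 lead pairs. CoIII was first (74.0% ± 0.14, n = 3) and Nd6, the complex I subunit encoded on the other strand, was last (38.3% ± 0.22, n = 3). Every one of the 3 Atp8 samples lay below all samples of 4 constructs (CoIII, CoI, Atp6 and CoII) and above all samples of the other 8.

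Such a separation was the rule at 14 d: 98.7% of the 78 pairs of constructs had on-target values that did not overlap, so it was not particular to Atp8. The neighbours were close. CoII lay directly above at 66.4% ± 0.12 and Cytb directly below at 64.5% ± 0.21 (n = 3 each), and the nearest samples were 0.59 and 0.49 points apart. With 3 samples against 3 the exact permutation test (two-sided) cannot give p below 0.10, which was the value for each of the 12 comparisons, before and after Benjamini-Hochberg adjustment over the 12. None therefore passed 0.05. Seen by complex, the 7 complex I subunits (38.3% to 63.3%) and Cytb all lay below Atp8, while the 3 complex IV subunits (66.4% to 74.0%) and Atp6 (69.7% ± 0.18, n = 3) lay above it. The same lead pairs did not show this split at 7 d, with 1 sample each in different runs. There CoIII (82.8%), CoI (81.2%) and CoII (70.9%) lay below Atp8 (83.2%), and only Atp6 (84.1%) lay above it.

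The off-target average of pair 51 at 14 d was 0.135%, 0.141% and 0.136%, against 0.0240%, 0.0240% and 0.0235% in the empty vectors. All 3 edited samples lay far above all 3 controls. The means were 0.138% ± 0.0032 and 0.0238% ± 0.00028 (SD, n = 3 each), a ratio of 5.77. The lowest edited sample over the highest control gave 5.64 and the highest over the lowest gave 6.01. The exact permutation p was 0.10 (two-sided, 3 against 3), the smallest this design allows.

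This ratio was taken against the controls of the 14 d run. The controls of all transient experiments, 11 samples, read from 0.0235% to 0.170%. Those of the screen and the 14 d run are labelled both WT and empty. The others are labelled WT, with no pair named. In the 14 d run the controls read 0.0235% to 0.0240% at coverages of 31440 to 40402. In the screen they read 0.0616% and 0.121% at 560 and 524. In the other experiments they read 0.140% to 0.170% at 6440 to 18319, and 0.155% to 0.161% at 230 to 379. Against the mean of all 11 the ratio was 1.29 (exact permutation p = 0.58). The 11 mix days and plasmid formats, while the Atp8 samples all came from the 14 d run. The permutation exchanges samples between runs with different backgrounds, so this p cannot tell Atp8 editing from run. The part of run and coverage in this background was not tested. If the target itself is among the averaged positions, its editing spread over the 5989 C:G pairs of the mtDNA adds 0.0109 to 0.011 points, or 9.26% to 9.83% of the excess over the empty vectors. Without that share the ratio was 5.31, an alternative chosen after seeing the data.

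By off-target average Atp8 was sixth of the 13 lead pairs at 14 d. CoIII was highest (0.289% ± 0.0050) and Nd2, a complex I subunit, lowest (0.0714% ± 0.0018, n = 3 each). Nd1, which lies where the arms of complex I meet, lay directly above Atp8 (0.157% ± 0.0099, n = 3), and Cytb directly below (0.127% ± 0.0016, n = 3). The Atp8 samples overlapped with no other construct, 5 above and 7 below, in a set where 97.4% of the 78 pairs of constructs did not overlap. The exact permutation p was 0.10 for each of the 12 comparisons, also after adjustment. Nd1 edited less on target than Atp8 (60.4% ± 0.10, n = 3) and had the higher off-target average. CoII, with an on-target value 1.08 points above that of Atp8, had an off-target average of 0.174% ± 0.00092 (n = 3), 0.0365 points above it.

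**Figure D2:**
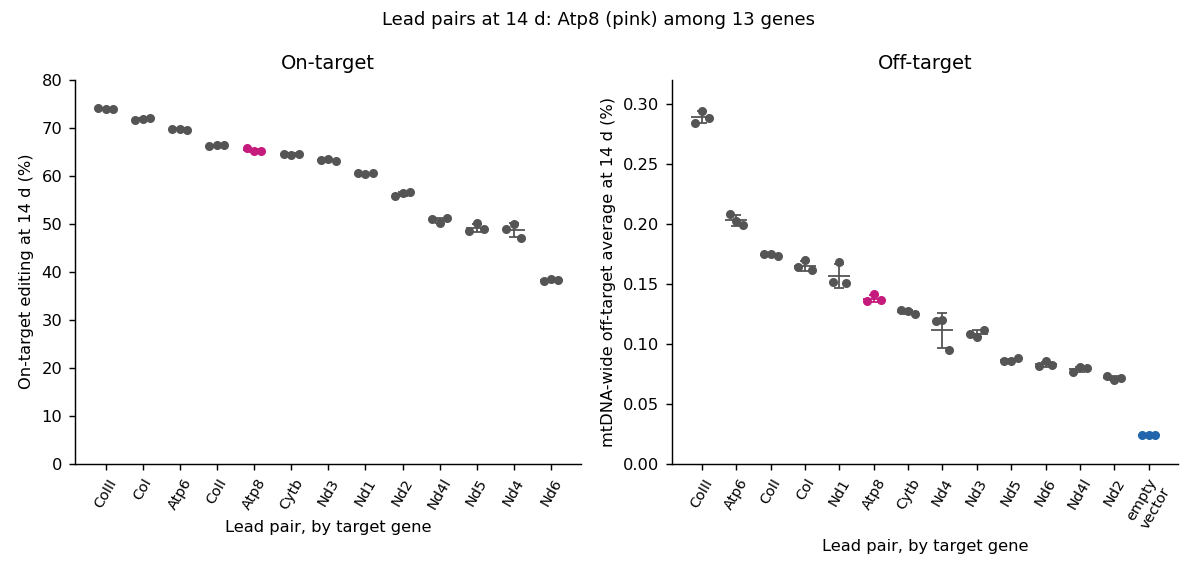
On-target editing (left, %) and mtDNA-wide off-target average (right, %) of the 13 lead pairs at 14 d, in descending order, with 1 point per sample, a dash for the mean and bars for the SD (n = 3). Atp8 (pink) is the fifth on target at 65.3% and sixth off target at 0.138%, and the empty vectors (blue) lie at 0.0238%.

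Setting the off-target excess over the empty vectors against the on-target value of the same sample gave 0.170, 0.180 and 0.172 points of excess per 100% on-target editing for Atp8 (mean 0.174 ± 0.0055, SD, n = 3). Atp8 was seventh of 13 on this scale, between Nd4 (0.179 ± 0.025, n = 3) and Cytb (0.159 ± 0.0027, n = 3). CoIII was highest (0.358 ± 0.0074) and Nd2 lowest (0.0845 ± 0.0037, n = 3 each). Atp6 produced 0.257 ± 0.0059 points (n = 3), more per unit of on-target editing than Atp8 in every sample. Of all pairs of constructs, 91.0% did not overlap on this scale. Atp8 was separate from all but Nd4. The Nd4 samples ran up to 0.194, and the lowest of them, replicate 3, had a mean coverage of 2561 where the other 38 edited samples had 37126 or more. Without that sample both remaining Nd4 values (0.193 and 0.194) lay above Atp8. The exact permutation p adjusted over 12 comparisons was 0.80 for Nd4 and 0.11 for the other 11.

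The same pair was thus read at 7 d and at 14 d. Atp8 on-target editing was 17.9 points lower at 14 d (83.2% in 1 sample against 65.1% to 65.7% in 3), and the share of reference copies was 2.06 times higher. All 13 lead pairs were lower at 14 d, by 4.50 to 27.2 points with a median of 9.65. Atp8 had the second largest fall. Nd4l, a short complex I subunit whose target is a CAA codon, was 27.2 points lower and Atp6 14.4 points lower, while CoII was only 4.50 points lower. These counts depend on the 7 d baseline, the pair that had been selected. Measured from the mean of all 4 pairs at 7 d instead, 9 of the 13 genes were lower at 14 d and 4 were higher (CoIII, CoII, Nd3 and Nd4, by up to 17.4 points), and Atp8 was 13.9 points lower, the sixth largest fall.

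The off-target average of pair 51 went from 0.271% to 0.138%, 0.507 of its screen value, in a set whose ratios ran from 0.234 in Nd4l to 0.849 in CoII. Day, sequencing run and the selection of the pair on the 7 d value change together here and cannot be told apart, and a single 7 d sample allows no test.

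**Figure D3:**
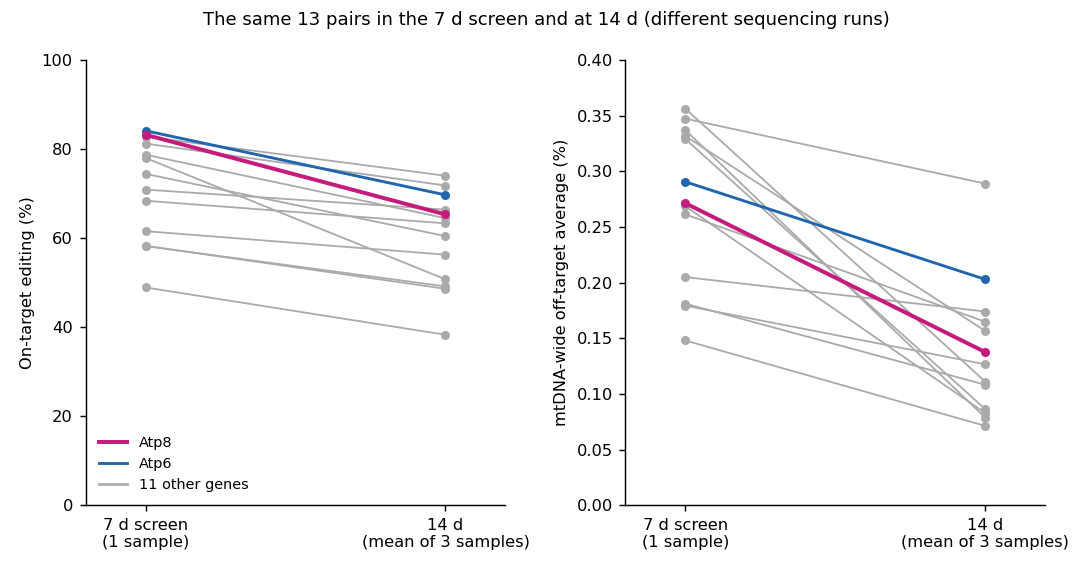
On-target editing (left, %) and mtDNA-wide off-target average (right, %) of the 13 lead pairs in the 7 d screen (1 sample each) and at 14 d (mean of 3 samples), 1 line per gene. Atp8 (pink) goes from 83.2% to 65.3% on target and from 0.271% to 0.138% off target; every line slopes down on both axes.

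Over 4 values of the lead pairs (on- and off-target percentages at 7 d and at 14 d, each scaled over the 13 genes), the genes nearest to Atp8 were CoI (Euclidean distance 0.79 in SD units), Atp6 (1.18) and Nd1 (1.27), and the farthest was Nd6 (4.02). CoI was edited slightly less than Atp8 at 7 d (81.2%) and more at 14 d (71.8% ± 0.14, n = 3). The distance covers 4 values per gene from 1 and 3 samples. Its 7 d values come from different runs (MS3 for Atp8, MS2 for CoI, MS1 for Atp6 and Nd1). Run and editing cannot be told apart in them.

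The position of the stop was set against the level of editing. Over the 13 lead pairs, the correlation between the share of the protein left before the stop and the 14 d on-target mean was -0.17 (Pearson) and 0.05 (Spearman). For the off-target average it was 0.10 and 0.14. With the number of codons before the stop in place of the share, it was 0.019 and 0.014 on target. Off target it was then 0.42 and 0.14 (0.45 and 0.20 without Atp8). The GC content of the 41 bp around the target gave -0.18 and -0.28 with the on-target mean. These are descriptions across 13 sites that share 1 sequencing run and differ in their TALE proteins, and no p is attached. The 5 targets within the first 30 codons (CoI, Atp8, Nd4, Nd3 and Nd2, in order of position) spread from 48.6% to 71.8% on target, with Atp8 second after CoI. CoIII, cut after 145 codons, was edited more than any of them.

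**Figure D4:**
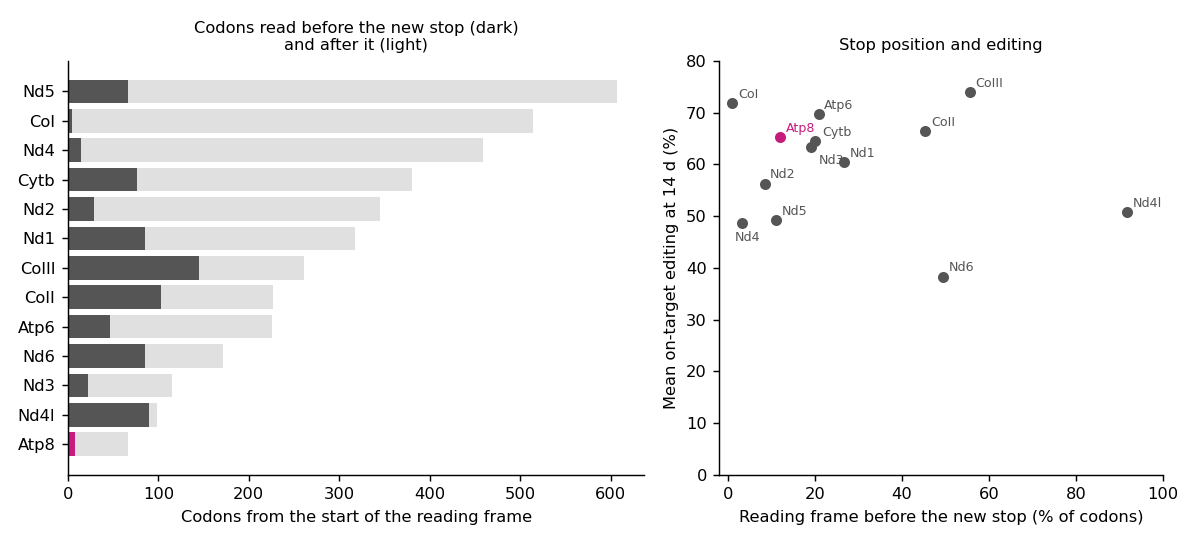
Left, codons of each reading frame before the new stop (dark; pink for Atp8) and after it (light), in order of frame length; right, mean on-target editing at 14 d (%) against the share of codons before the stop (%), 1 point per gene. Atp8 keeps 8 of 67 codons and lies at 11.9% and 65.3%, and the Pearson correlation over the 13 points is -0.17.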

How the data were processed

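mtDNA of NIH/3T3 cells was amplified by the authors as 2 overlapping long-range PCR products, tagmented with Nextera XT, sequenced on MiSeq or NovaSeq, trimmed with Trim Galore, aligned with Bowtie2 to chromosome M of GRCm38 and piled up with samtools (mapping quality of at least 30) and varscan; the submitters' processing notes name Trim Galore, cutadapt, SAMtools and GRCm38. The percent values (on-target and off-target) and the mean coverage signal were used as deposited, one entry per sample. Coverage was 92.6 to 18082 in the screen and 2561 to 96891 at 14 d. Since the depth at the target is not given, intervals were not computed, and errors are SDs over samples. The legends of the study call the 14 d replicates technical, and p-values then measure only that spread.

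Samples were grouped by their labels. In the empty-vector table, 4 entries match no sample record and were left out. Means, SDs, ratios, exact permutation tests (two-sided, threshold 0.05) and Benjamini-Hochberg adjustment over 12 comparisons were computed with Python 3.11.15, NumPy 2.4.6, SciPy 1.17.1 and pandas 2.3.3, after tests on simulated data. Target codons were located in the RefSeq GRCm38 mtDNA with Biopython 1.88 and the vertebrate mitochondrial code, taking in each gene the codon that the study names. Named genes are Atp8, Atp6, the first, last and adjacent genes of each order, and the 3 most alike. The members, gene lists and tests were chosen with earlier results of these data known. A quality score in the deposited screen table was not used.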

Additional observations from a re-analysis of the deposited data

How the results depend on the processing

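The 8 results were recomputed under 50 alternatives, and none turned a direction, though against the 11 transient controls that rests on a ratio of means. Except against these 11 controls, no exact test here could reach 0.05, so the other p-values say nothing about stability. The largest move came from replacing the 14 d empty vectors by all 11 controls of the transient experiments. The off-target ratio then fell from 5.77 to 1.29 (exact permutation p = 0.58). Those 11 mix days, runs and plasmid formats, so this p does not compare Atp8 with controls of its own run. The cause was not tested. The controls from other plasmid formats (0.140% to 0.170% and 0.155% to 0.161%, 3 samples each) all read above the Atp8 mean of 0.138%. Leaving out 1 sample at a time, the off-target ratio of Atp8 over the empty vector at 14 d stayed between 5.69 and 5.82, the excess per 100% on-target editing between 0.171 and 0.176 points, and the change from 7 d to 14 d between -18.1 and -17.8 points; the constructs wholly below Atp8 stayed 8 on target and 7 off target. Without subtraction of the empty vector the off-target average was 0.211 points per 100% on target, which placed Atp8 at rank 8 of 13 instead of 7. From the mean of 4 pairs at 7 d the change was -13.9 points, and in log-odds it was -0.97. The range over the Atp8 pairs was 0.53 in log-odds and 3.59 points as an SD, the smallest of 13 genes on both scales, against the second smallest in points. As a difference, the off-target excess of the Atp8 screen pairs was 0.228 points (median of 3 pairs). Without pairs of coverage under 500 the Atp8 mean was 78.9% (rank 4 of 13). The range over the 3 remaining Atp8 pairs was 8.66 points, rank 3 of 13 from the smallest. The median off-target ratio was 3.48, but only pairs 52 (4.86) and 77 (2.09) entered it. With repeat numbers as a replicate block, the 14 d ratio was 5.77 (exact sign-flip p = 0.25, the smallest that 3 pairs allow), the excess was 0.174 points, and 8 and 7 constructs lay below Atp8 in every pair; equal numbers are only shared labels here. The screen has 1 sample per pair, and coverage under 500 limits pair 78.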
